A study of Mus musculus with 6 samples.

Results

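The receptors described here are 8 genes whose proteins guide blood cells to, within or out of tissues, or attach them to vessel walls and matrix. They are the chemokine receptors Cxcr4, Cxcr5, Ccr7 and Ccr9, the sphingosine-1-phosphate receptors S1pr1 and S1pr4, and the adhesion molecules Selplg and Cd44. Their regions were chosen by position alone. A peak of accessible chromatin belonged to a gene if it overlapped the gene body or, overlapping no protein-coding gene, had that gene as its nearest protein-coding gene within 100 kb in a RefSeq table of GRCm38, the assembly that mm10 names. This gave 131 of the 97124 peaks, from 33 for Cxcr4 to 4 for S1pr4, and no peak fell to more than 1 of the 8 genes. Assignment by distance says where a peak lies and does not show which gene it acts on.

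Open chromatin was read by ATAC-seq, which uses a transposase to place sequencing adapters where DNA is accessible. The samples were H2B-GFP high, quiescent bone marrow B-cells (n = 3) and H2B-GFP low, proliferating bone marrow B-cells (n = 3), all from PEtg mice. H2B-GFP is a fluorescent histone that is diluted at cell division. The labels give no mouse number, age or description of the transgene and its promoter, so whether samples came from separate mice is not known. The p-values given here therefore measure only the spread among 6 samples, some of which may be technical. Both groups are B-cells of PEtg mice carrying H2B-GFP, and no B-cells from other mice are compared here.

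B-cell precursors move through the marrow on gradients of ligand. The chemokine CXCL12, made by stromal cells, binds CXCR4 and holds precursors in the marrow, whereas sphingosine-1-phosphate is abundant in blood and draws cells that carry S1PR1 out of the tissue. Selectin ligands such as PSGL-1, the product of Selplg, catch rolling cells on the vessel wall, and CD44 binds hyaluronan in the matrix.

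At the peaks that passed the test, quiescent cells had more signal between genes near S1pr1, Ccr7 and Cxcr5, and less signal in Cd44 and beside Selplg. Near Cxcr4 peaks changed in both directions. The strongest peaks of Cxcr4, Ccr7, S1pr1 and Selplg did not pass the test, and no peak of Ccr9 or S1pr4 did. In all, 9 of the 120 tested peaks (7.5%) were higher and 5 (4.17%) were lower in quiescent cells at an adjusted p below 0.05, against 4.01% and 2.72% of all 87411 tested peaks (limma on log2 of the deposited signal + 1, with Benjamini-Hochberg adjustment over all tested peaks). Together these were 14 of 120 peaks, against 6.72% of all tested peaks in either direction. The median log2 fold change, quiescent against proliferating, was 0.15 over the 120 receptor peaks and -0.01 over all tested peaks. The remaining 11 receptor peaks lay in the weakest 10% of the table, at a mean signal of up to 18.5, and were not tested.

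All 9 higher peaks lay between genes, where the median of 85 tested receptor peaks was 0.19. In the gene bodies, 2 of 35 tested peaks passed, both in Cd44 and both lower, and the median was -0.03. None of those 35 peaks was higher in limma, where 3 had an unadjusted p below 0.05 and a positive fold change. On the reads behind the deposited values, limma-voom called 0 of them higher with total scaling and 1 with median-of-ratios scaling. Over the whole table, 3.58% of tested peaks in bodies of coding genes were higher and 2.52% lower, and of those between coding genes 4.45% were higher and 2.97% lower. Between genes, 9 receptor peaks were higher and 3 lower.

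With the sample number as a block, 22 receptor peaks (18.3%) were higher and 10 (8.33%) lower, against 10.2% and 8.14% of all tested peaks. On recovered reads with total scaling limma-voom called 9 receptor peaks higher and 8 lower, against 5.0% and 9.83% of all tested peaks, and with median-of-ratios scaling 20 higher and 5 lower, against 9.97% and 3.98%. The groups did not overlap at 47 of the 120 peaks, with quiescent cells higher at 34 and lower at 13, while the groups did not overlap at 30.4% of all tested peaks (15.4% higher and 14.9% lower in quiescent cells). The number of calls changed with the samples used. Leaving out quiescent sample 1, 2 or 3 kept 12, 0 or 0 of the 14 called receptor peaks in limma, leaving out proliferating sample 1, 2 or 3 kept 13, 1 or 3, and calls over the whole table numbered 6505, 161 or 0 and 8241, 790 or 1160, against 5876 with all samples. Each of the 14 peaks had a log2 fold change at 74.7% to 122% of its value with all samples. Its sign could not change, because the groups did not overlap at any of these peaks. Without quiescent sample 2 or 3, 21 receptor peaks were higher and 9 lower at an unadjusted p below 0.05, together 30 of 120, against 19.1% of all tested peaks in either direction without sample 2 and 18.9% without sample 3.

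**Figure D1:**
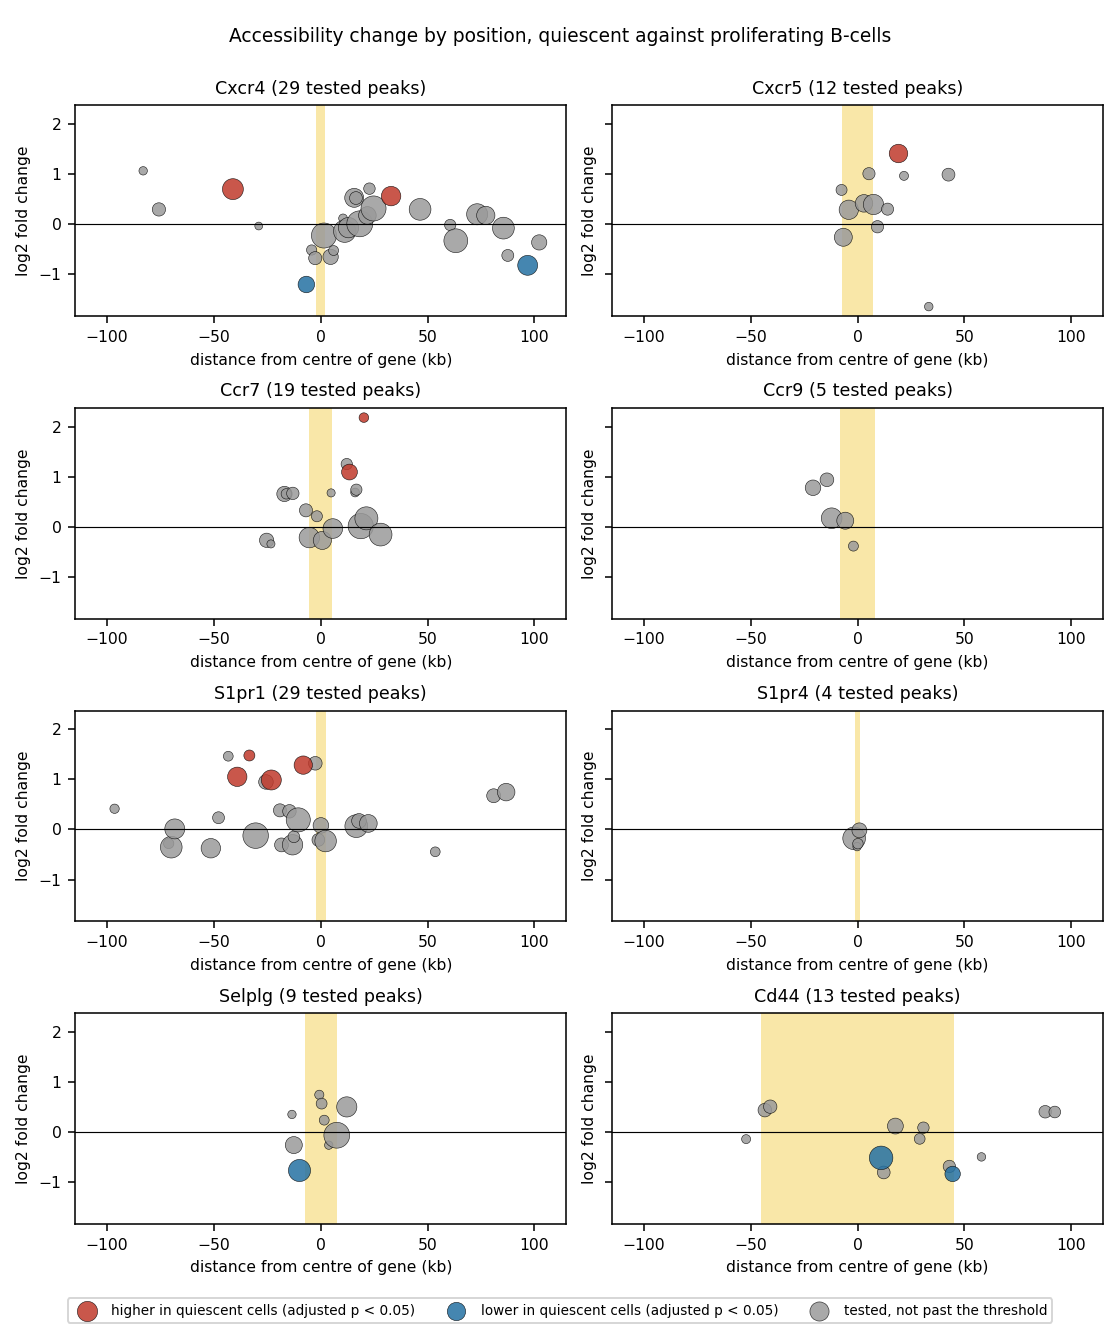
Log2 fold change (quiescent against proliferating, vertical axis) of the 120 tested receptor peaks by distance from the centre of the gene in kb (horizontal axis, negative at lower coordinates), 1 panel per gene. The shaded band is the gene body, the area of a point grows with mean signal, red points are higher and blue points lower in quiescent cells at an adjusted p below 0.05, and grey points did not pass. The 4 red points of S1pr1 lie on the low-coordinate side of the gene, and both blue points of Cd44 lie inside the gene.

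The reads in peaks recovered from the deposited values numbered 14019251 to 28176875 in the quiescent samples and 8053482 to 48862508 in the proliferating samples, of which number 1 was the shallowest and number 3 the deepest. The median peak held 27 reads in the shallowest sample and 179 in the deepest. All 9 B-lineage marker genes examined had a peak, with Igll1, a part of the pre-B receptor, the strongest, which is what the label B-cells implies. Of the markers of other cell types, Csf1r of monocytes (log2 fold change 1.06) and Siglech of plasmacytoid dendritic cells (1.35) were higher in quiescent cells in limma, while Itgam (-0.15) and Lyz2 (0.21) of myeloid cells, and Bst2 (-0.07) and Sdc1 (0.52) of the plasma and plasmacytoid list, did not pass. The summed signal of the 3 of 4 plasma and plasmacytoid dendritic cell markers that had a peak was 1152 to 1685 in quiescent and 956 to 994 in proliferating samples. Markers of myeloid cells, with a peak at 3 of 8 genes and none at Mpo, Elane, S100a8, Ly6g and Csf3r, summed to 3058 to 4257 in quiescent and 2901 to 4418 in proliferating samples. For T and NK cells, 4 of 7 markers had a peak, with 1914 to 2269 against 1664 to 1826, and for erythroid cells 2 of 4 did, with 77.9 to 103 against 75.4 to 113. The part of other cell types in the receptor results was not tested. In bulk samples, fewer cells of a type and less open chromatin per cell cannot be told apart.

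**Figure D2:**
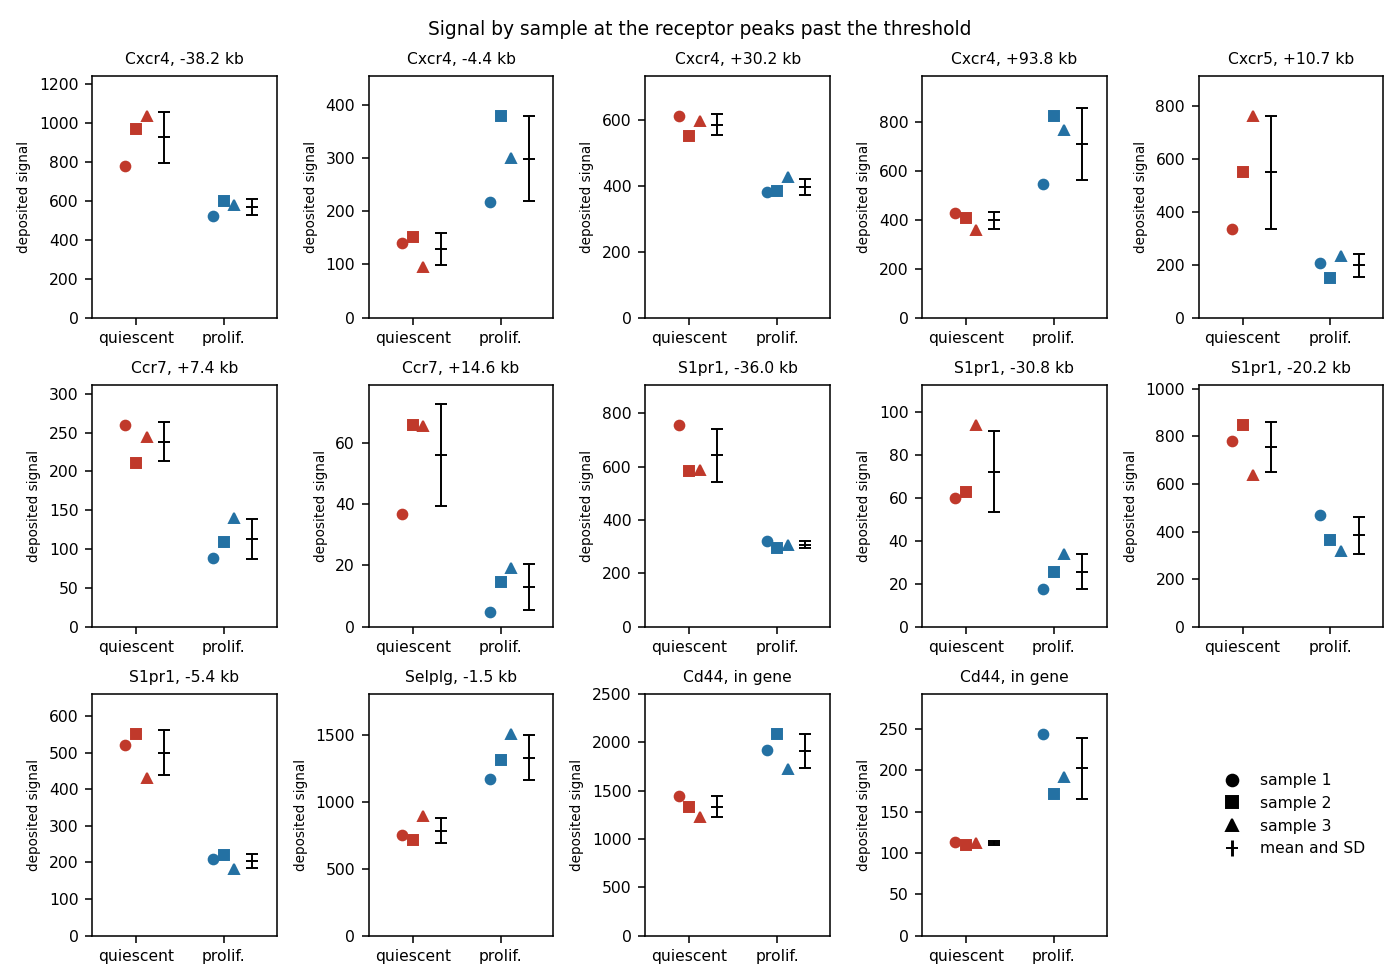
Deposited signal (vertical axis, from 0) of the 14 receptor peaks past the threshold, 1 panel per peak, in quiescent samples (red, left) and proliferating samples (blue, right). Symbols give the sample number, black bars the mean and SD (n = 3), and titles the distance from the gene in kb, negative at lower coordinates. In each of the 14 panels the 3 quiescent samples lie wholly above or wholly below the 3 proliferating samples.

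S1pr1, the receptor that guides lymphocytes out of tissue, lies at chr3:115710433-115715055 and had the most higher peaks, 4 of 29 tested, with none lower. All 4 lay on the low-coordinate side of the gene, at most 35967 bp away, where 20 peaks were tested and the median log2 fold change was 0.30. The table of genes used here gives no strand for S1pr1, so that side is named by coordinate only. The peak at chr3:115704034-115705040, 5393 bp from the gene, had signals of 520.4, 551 and 430.2 in quiescent samples 1, 2 and 3 and of 210.4, 220.2 and 183 in proliferating samples 1, 2 and 3. Every quiescent sample had more signal than every proliferating sample, and the log2 fold change was 1.28 ± 0.17 (SE, n = 3 each, limma adjusted p = 0.00839). It was the 1 receptor peak that limma still called without proliferating sample 2.

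Further out, at chr3:115688910-115690263, 20170 bp from S1pr1, the quiescent samples had 782, 847 and 639 and the proliferating samples 469, 364 and 318. This peak rose by 0.99 ± 0.18 on the log2 scale (limma adjusted p = 0.0199), with no overlap of the groups. Another peak of similar size, chr3:115672820-115674466, 35967 bp from the gene, had 755, 582 and 588 in quiescent and 322, 295 and 305 in proliferating samples. Here the proliferating samples lay close together and quiescent sample 1 stood above the other quiescent samples (1.05 ± 0.16, limma adjusted p = 0.0109). The last of the 4, chr3:115679012-115679607, was weak, at 60.1, 62.8 and 94 in quiescent and 17.7, 25.5 and 33.8 in proliferating samples, from 7 to 95 reads. Its log2 fold change was 1.47 ± 0.34 (limma adjusted p = 0.0362), and on recovered reads with total scaling it was 0.89 and did not pass (limma-voom adjusted p = 0.104).

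Between these peaks stood the strongest S1pr1 peak, chr3:115680761-115683749, with 2901, 3058 and 2818 in quiescent and 2903, 3299 and 3374 in proliferating samples. The groups overlapped there and the peak did not pass (-0.12 ± 0.10, limma adjusted p = 0.486). No S1pr1 peak was lower in limma, 1 had an unadjusted p below 0.05 and a negative fold change, and limma-voom called 0 lower with either scaling. The peak 15 bp from the low-coordinate end of the gene, chr3:115709922-115710418, had 107, 168 and 132 in quiescent and 26.6, 81.2 and 68.1 in proliferating samples. It did not pass without the block (1.32 ± 0.40, limma adjusted p = 0.0831) and passed with it (adjusted p = 0.00572), as did 4 more S1pr1 peaks that were higher and 1 that was lower. At the other end, the peak chr3:115713260-115716732 that covers the end of the gene had 889, 802 and 788 in quiescent and 849, 997 and 1074 in proliferating samples (-0.23 ± 0.13, limma adjusted p = 0.335). On the high-coordinate side none of 6 tested peaks passed in limma, 1 had an unadjusted p below 0.05, limma-voom called 0 with total scaling and 1 with median-of-ratios scaling, and 2 were higher with the block.

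**Figure D3:**
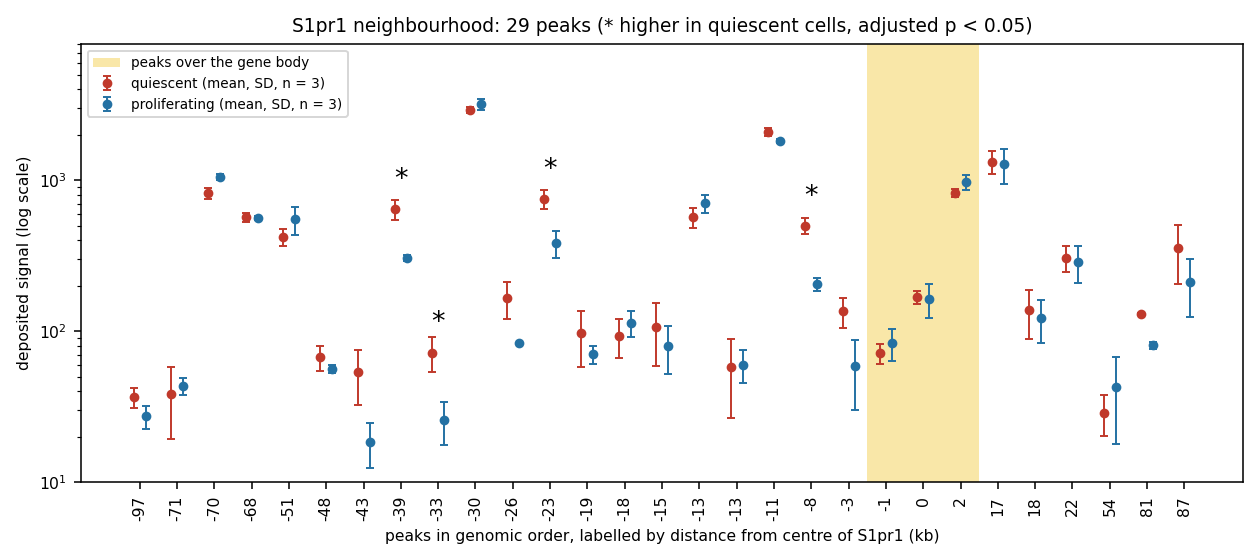
Deposited signal (log scale) of the 29 S1pr1 peaks in genomic order, labelled by distance from the centre of the gene in kb, as mean and SD of the 3 quiescent samples (red, left of each pair) and the 3 proliferating samples (blue). Shading marks the peaks over the gene body and asterisks the 4 peaks higher in quiescent cells. The strongest peak, at a mean of 2926 in quiescent and 3192 in proliferating samples, stands among the starred peaks and has none.

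S1pr4, a sphingosine-1-phosphate receptor of blood cells, held 4 tested peaks over its short gene, chr10:81497745-81500137, and none passed. No S1pr4 peak had an unadjusted p below 0.05 in limma, and limma-voom called 0 with either scaling. Its strongest peak, chr10:81496230-81498470, which also overlaps the neighbouring gene Ncln, had 1215, 1132 and 1208 in quiescent and 1378, 1339 and 1301 in proliferating samples. Each quiescent value lay below each proliferating value by a small margin, and the log2 fold change was -0.18 ± 0.11 (limma adjusted p = 0.352). At the peak over the gene start, chr10:81499344-81500294, the signals were 165, 119 and 124 in quiescent and 109.7, 163 and 141 in proliferating samples, and the groups overlapped (-0.02 ± 0.23, limma adjusted p = 0.973).

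Cxcr4, the CXCL12 receptor that retains precursors in the marrow, lies at chr1:128588199-128592299 on the minus strand and had the most peaks, 33, of which 29 were tested, with 2 higher and 2 lower. The Cxcr4 promoter, 250 bases before to 50 after the gene start, is shown because the whole of it lay under the peak at the gene start, so that this peak reads the promoter itself. It is written 5′ to 3′ on the minus strand from RefSeq (GRCm38.p6, chr1:128592250-128592549), and capitals mark the 3 matches to the reverse complement of GGGCGG, a GC box.
Cxcr4 promoter: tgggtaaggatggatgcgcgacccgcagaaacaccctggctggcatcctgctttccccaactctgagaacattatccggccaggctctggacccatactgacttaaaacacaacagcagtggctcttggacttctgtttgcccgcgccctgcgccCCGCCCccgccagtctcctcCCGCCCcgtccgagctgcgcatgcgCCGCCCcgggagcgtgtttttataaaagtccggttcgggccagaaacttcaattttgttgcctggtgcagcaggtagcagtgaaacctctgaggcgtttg
The GC content of these 300 bases was 59.3%, with 20 CpG dinucleotides, against medians of 52.7% and 7 over the 32851 promoters of the table. A match to GGGCGG on either strand was present in 35.7% of those promoters, so it is common.

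The peak over that promoter, chr1:128589460-128594019, had 2111, 2497 and 2678 in quiescent and 2581, 2876 and 3031 in proliferating samples. The groups overlapped and it did not pass (-0.22 ± 0.12, limma adjusted p = 0.289). The strongest Cxcr4 peak, chr1:128607396-128609575, lay 15097 bp from the gene on the side of the gene start and had 3103, 3462 and 3807 in quiescent and 3321, 3545 and 3405 in proliferating samples. Its log2 fold change was 0.01 ± 0.10 (limma adjusted p = 0.967).

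The 4 Cxcr4 peaks that passed lay outside the gene. Of the 2 lower ones, chr1:128583198-128583789 lay 4410 bp past the 3′ end and had 141, 151 and 94.5 in quiescent against 218, 378 and 300.1 in proliferating samples. Every quiescent sample was below every proliferating one, and the log2 fold change was -1.20 ± 0.26 (limma adjusted p = 0.0315), the largest fall among the receptor peaks that passed. The other lower peak, chr1:128686131-128688052, lay 93832 bp upstream, with 428, 407 and 359 in quiescent and 544, 822 and 767 in proliferating samples (-0.82 ± 0.18, limma adjusted p = 0.0337). At that distance it belongs to Cxcr4 only as the nearest gene, and it is left out when the limit is 50 kb.

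The higher Cxcr4 peaks were chr1:128548176-128550047, 38152 bp past the 3′ end, and chr1:128622542-128623764, 30243 bp upstream. At the first, the signals were 779.7, 965 and 1032 in quiescent and 521, 599 and 578 in proliferating samples (0.70 ± 0.15, limma adjusted p = 0.0284); this peak overlaps the non-coding gene Gm41950. At the second, they were 611, 549.8 and 597 in quiescent and 381, 383 and 425 in proliferating samples (0.56 ± 0.14, limma adjusted p = 0.0446). Neither peak had any overlap between groups. With the block, 3 Cxcr4 peaks were higher and 4 lower. Summed over all 33 Cxcr4 peaks, the signal was 18940.0 ± 1215 in quiescent and 18908 ± 1728 in proliferating samples (SD, n = 3 each), so the whole neighbourhood differed by far less than the spread between samples.

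Cxcr5, the receptor for CXCL13 that leads mature B-cells into follicles, lies at chr9:44511787-44526444 and had 1 higher peak among 12 tested. That peak, chr9:44537153-44538656, 10709 bp from the gene, had 336, 549.9 and 761 in quiescent and 208, 152 and 234 in proliferating samples. Its quiescent samples were widely spread, yet the lowest of them exceeded the highest proliferating sample, and the log2 fold change was 1.41 ± 0.29 (limma adjusted p = 0.0271). The strongest Cxcr5 peak, chr9:44525918-44527246, over the high-coordinate end of the gene, had 685, 659 and 704 in quiescent and 361, 617 and 628 in proliferating samples. It did not pass (0.40 ± 0.21, limma adjusted p = 0.296), and proliferating sample 1, the shallowest library, lay far below the others. At the low-coordinate end, chr9:44511464-44511811, which also overlaps Bcl9l, had 44.1, 74.2 and 65.5 in quiescent and 32.9, 39.4 and 38.5 in proliferating samples (0.69 ± 0.29, limma adjusted p = 0.19). With the block, 3 Cxcr5 peaks were higher and 1 lower, the lower one on the same side of the gene as the called peak. The largest fall among the 120 tested receptor peaks, at a log2 fold change of -1.64, was also at Cxcr5. It did not pass in limma without the block. On recovered reads, limma-voom called 1 Cxcr5 peak higher and 1 lower with total scaling, and 2 higher and 0 lower with median-of-ratios scaling.

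Ccr7, the receptor for CCL19 and CCL21 that leads lymphocytes into T-cell zones, lies at chr11:99144199-99155077 and had 2 higher peaks among 19 tested and none lower. Both stood on its high-coordinate side. The first, chr11:99162524-99163609, 7447 bp from the gene, had 259, 210.4 and 244 in quiescent and 88.5, 109.6 and 139.6 in proliferating samples. The groups were well apart, with a log2 fold change of 1.09 ± 0.22 (limma adjusted p = 0.0242).

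The second, chr11:99169672-99169946, 14595 bp from Ccr7 and over the non-coding gene Gm32249, was a narrow and weak peak with 36.7, 65.6 and 65.3 in quiescent and 4.65, 14.7 and 19.2 in proliferating samples. These values stood for 2 to 55 reads, with 2 in proliferating sample 1. The log2 fold change of 2.18 ± 0.52 was the largest of the receptor peaks (limma adjusted p = 0.0419). On recovered reads with total scaling it was 1.32 and did not pass (limma-voom adjusted p = 0.0831). Right beside it, the strongest Ccr7 peak, chr11:99167449-99169248, had 2607, 2821 and 2992 in quiescent and 2162, 3119 and 3160.2 in proliferating samples and did not pass (0.02 ± 0.15, limma adjusted p = 0.965).

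The peaks over the ends of Ccr7 did not pass either. At chr11:99143205-99145344 the signals were 743, 471 and 589 in quiescent and 754, 633 and 675 in proliferating samples (-0.21 ± 0.18, limma adjusted p = 0.516), and at chr11:99154799-99155735 they were 390.2, 499.9 and 647 in quiescent and 479, 476 and 594 in proliferating samples (-0.03 ± 0.20, limma adjusted p = 0.942). Between genes the median over the tested Ccr7 peaks was 0.66, and over the gene body it was -0.03. With the block, 4 Ccr7 peaks were higher, all of them between genes, and none was lower. No Ccr7 peak with a negative fold change had an unadjusted p below 0.05 in limma without the block, and limma-voom called 0 lower with either scaling.

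Ccr9, the receptor for CCL25 of thymus and gut, lies at chr9:123767211-123783457 and none of its 5 peaks passed. In limma 1 had an unadjusted p below 0.05, and limma-voom called 0 with either scaling. That peak, chr9:123754122-123754877, had 172, 246 and 197 in quiescent and 80.4, 138 and 147 in proliferating samples, with no overlap of the groups (0.78 ± 0.27, limma adjusted p = 0.117, and 0.0185 with the block). With the block 2 Ccr9 peaks were higher and none was lower. The strongest peak, chr9:123762637-123763800, had 539, 855 and 815 in quiescent and 613, 746 and 573 in proliferating samples, and these overlapped (0.17 ± 0.20, limma adjusted p = 0.645). No peak covered the Ccr9 promoter. The nearest one to the gene start, chr9:123769059-123770145, had 221, 249.6 and 286 in quiescent and 264, 236 and 197 in proliferating samples (0.12 ± 0.19, limma adjusted p = 0.739).

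**Figure D4:**
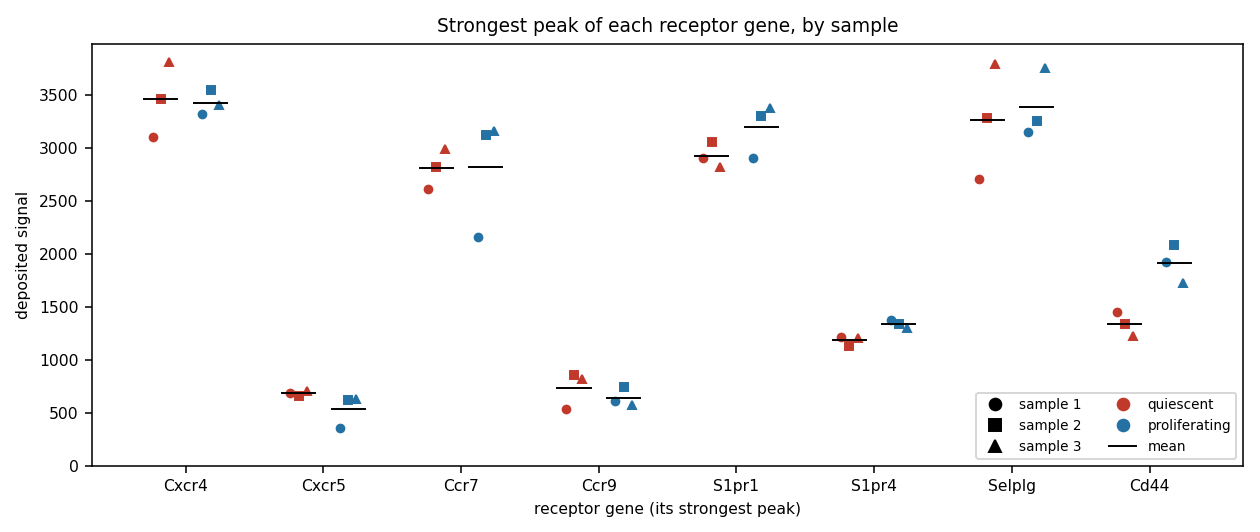
Deposited signal (vertical axis, from 0) of the strongest peak of each receptor gene in quiescent samples (red, left) and proliferating samples (blue, right), with symbols for the sample number and a bar at the mean of 3 samples. Of these 8 peaks only that of Cd44 passed the test, at 1336 in quiescent and 1911 in proliferating samples on average.

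Cd44, the hyaluronan receptor, spans chr2:102811141-102901669 on the minus strand and had 2 lower peaks among 13 tested and none higher. Its strongest peak, chr2:102866736-102868153, inside the gene, had 1448, 1336 and 1225 in quiescent and 1922, 2086 and 1726 in proliferating samples. All quiescent samples lay below all proliferating samples, and the log2 fold change was -0.51 ± 0.12 (limma adjusted p = 0.0383). It did not pass on recovered reads, at -0.36 with total scaling and -0.11 with median-of-ratios scaling (limma-voom adjusted p = 0.0777 and 0.665).

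The other lower Cd44 peak, chr2:102900093-102901752, covered the gene start and reached 137 bases into the 300-base promoter. The promoter is shown because it is the only receptor promoter under a peak that passed. It is written 5′ to 3′ on the minus strand from RefSeq (GRCm38.p6, chr2:102901616-102901915), and capitals mark the match to GGGCGG.
Cd44 promoter: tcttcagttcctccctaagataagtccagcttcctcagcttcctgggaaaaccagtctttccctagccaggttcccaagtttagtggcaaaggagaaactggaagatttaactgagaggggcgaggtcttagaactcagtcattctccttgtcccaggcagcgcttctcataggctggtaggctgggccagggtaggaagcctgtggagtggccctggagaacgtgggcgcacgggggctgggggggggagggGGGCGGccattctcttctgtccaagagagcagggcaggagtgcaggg
Its GC content was 58.0%, with 6 CpG dinucleotides, close to the median of 7 over all promoters and fewer than in the Cxcr4 promoter. The signals of the peak were 114, 109 and 112 in quiescent and 244, 172 and 192 in proliferating samples. The quiescent samples differed among themselves by a few units and lay well below the proliferating ones (-0.84 ± 0.20, limma adjusted p = 0.0419). Over all 17 Cd44 peaks the summed signal was 2444, 2342 and 2099 in quiescent and 3105, 3109 and 2683 in proliferating samples, with no overlap and a ratio of 0.774. Most of that difference came from the strongest peak, which did not pass on recovered reads, so the sum does not show a fall across the gene. Of the 13 tested peaks, 6 had a fold change above 0 and 7 below, with a median of -0.14 on the log2 scale. None of the 13 tested peaks was higher in limma, where 1 had an unadjusted p below 0.05 and a positive fold change, and limma-voom called 0 higher with either scaling. With the block, 3 Cd44 peaks were lower and none was higher.

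Besides GGGCGG, 11 other short motifs were searched on both strands of the promoters of Cxcr4, Ccr9, S1pr4 and Cd44, the 4 genes of the 8 that the table holds. These were GTAAACA (FOXO), GGGTGG (KLF/SP), CCGGAAG (ETS), GAGGAAGT (PU.1), TGTGGTT (RUNX), CAGCTG (E2A), CCCNNGGGA (EBF), CCAAT (NF-Y), GGGANTTCC (NF-kB), TACGTG (HIF) and TGACGTCA (CRE). Only GGGTGG was found, once each in Ccr9 and S1pr4, and 31.5% of all promoters hold it. The absence of the others says only that these letters are not in these windows.

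Selplg, which encodes the selectin ligand PSGL-1, lies at chr5:113817798-113832528 and had 1 lower peak among 9 tested and none higher. It was chr5:113813425-113816340, 1458 bp from the low-coordinate end of the gene and over the non-coding gene Gm42004, with 753, 713 and 897 in quiescent and 1174, 1314 and 1509 in proliferating samples. Every quiescent value lay below every proliferating value, and the log2 fold change was -0.76 ± 0.14 (limma adjusted p = 0.0209). The widest and strongest Selplg peak, chr5:113829384-113835911, over the other end of the gene, had 2703, 3276 and 3793 in quiescent and 3144, 3256 and 3749.6 in proliferating samples. The groups overlapped almost wholly and it did not pass (-0.06 ± 0.14, limma adjusted p = 0.815). Next to it, chr5:113835949-113838706, chosen after its values were seen, had 582, 718 and 829 in quiescent and 545, 450.0 and 498 in proliferating samples. It did not pass without the block (0.50 ± 0.17, limma adjusted p = 0.106) and was higher with it (adjusted p = 0.0368). In limma without the block, 1 Selplg peak had an unadjusted p below 0.05 and a positive fold change, and limma-voom called 0 higher with total scaling and 1 with median-of-ratios scaling.

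Per kilobase of peak, the strongest peaks fell into an upper and a lower set of 4 genes each. Cxcr4 stood at 1586 ± 162 in quiescent and 1571 ± 51.9 in proliferating samples (SD, n = 3 each), and Ccr7 at 1559 ± 107 in quiescent and 1563 ± 314 in proliferating samples. Cd44 followed with 942 ± 78.7 and 1348 ± 127, and S1pr1 with 979 ± 40.8 and 1068 ± 84.7. In the lower set Ccr9 had 632 ± 148 in quiescent and 553 ± 77.9 in proliferating samples, S1pr4 had 529 ± 20.6 and 598 ± 17.1, Selplg had 499 ± 83.5 and 518 ± 49.4, and Cxcr5 had 514 ± 17.0 and 403 ± 114. The 6 samples of each gene overlapped with those of the next in this order except between S1pr1 and Ccr9.

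Other genes of leukocyte trafficking were read from 5 lists of 94 genes in all, of which 79 had a tested peak, with 592 tested peaks. Of these peaks 37 (6.25%) were higher and 11 (1.86%) lower in quiescent cells, against 4.01% and 2.72% of all tested peaks. With the block 92 (15.5%) were higher and 42 (7.09%) lower, against 10.2% and 8.14%. The median log2 fold change was 0.07. Genes with called peaks that were all higher numbered 21, those with called peaks all lower 6, those with both 3, and 49 had no called peak. On recovered reads 10 of the 48 called peaks did not pass with total scaling and 6 did not with median-of-ratios scaling.

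Other chemokine receptors and scavengers had the largest share of higher peaks, 13 of 75 (17.3%, against 4.01% of all tested peaks), with 1 lower (1.33%, against 2.72%) and a median of 0.27. Among these genes, the called peaks of Ccr1, Ccr2, Ccr6, Xcr1, Ackr2 and Cmklr1 were all higher, and Ackr4 had 1 lower peak, which did not pass on recovered reads with median-of-ratios scaling (limma-voom adjusted p = 0.16). Ccr1, Ccr2 and Xcr1, like Ccr9, are on chromosome 9. A peak between genes near Ccr2, the monocyte chemokine receptor, had 94.8, 123 and 72.4 in quiescent and 39.0, 30.9 and 26.8 in proliferating samples (1.54 ± 0.29, limma adjusted p = 0.0205). Of the 3 myeloid markers with a peak, Csf1r was higher and Itgam and Lyz2 did not pass, and of the 3 plasma and plasmacytoid dendritic markers with a peak Siglech was higher and Bst2 and Sdc1 did not pass. The part of such cells in this list was not tested. With the block 22 peaks of the list (29.3%) were higher and 3 (4%) lower, against 10.2% and 8.14% of all tested peaks.

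Among ligands and the supply of sphingosine-1-phosphate, 4 of 88 tested peaks (4.55%) were higher and 1 (1.14%) lower. Without the block these shares lay near or below the 4.01% and 2.72% of all tested peaks. The block gave 13 higher (14.8%) and 5 lower (5.68%), against 10.2% and 8.14% of all tested peaks. The peaks named from this list are single values and say nothing of the list. A peak in Sgpl1, the lyase that degrades sphingosine-1-phosphate, had 171, 178 and 150.0 in quiescent and 72.1, 52.9 and 51.6 in proliferating samples (1.49 ± 0.22, limma adjusted p = 0.011), and a peak near the lipid phosphatase gene Plpp3 fell by 1.46 on the log2 scale. Spns2, a sphingosine-1-phosphate transporter, had 2 higher peaks, and this gene, S1pr3 and Klf2 were chosen after their values were seen. Of the other lipid and orphan receptors, 2 of 49 tested peaks (4.08%, near the share of all tested peaks) were higher, both of S1pr3, a further sphingosine-1-phosphate receptor, of which 1 did not pass on recovered reads with total scaling (limma-voom adjusted p = 0.119). None was lower in limma without the block, where 3 had an unadjusted p below 0.05 and a negative fold change, and limma-voom called 2 lower with total scaling and 0 with median-of-ratios scaling. With the block 9 (18.4%) were higher and 2 (4.08%) lower, against 10.2% and 8.14% of all tested peaks.

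Selectin genes and the enzymes that build selectin ligands had 8 higher (5.8%) and 6 lower (4.35%) peaks of 138 tested, against 4.01% and 2.72% of all tested peaks. The balance turned with the fit: 16 (11.6%) were higher and 19 (13.8%) lower with the block, against 10.2% and 8.14% of all tested peaks. On recovered reads 9 were higher and 17 lower with total scaling, and 19 and 6 with median-of-ratios scaling. Peaks of the galactosyltransferase gene B4galt1 (1.58) and the sialyltransferase gene St3gal4 (1.41) rose, and peaks of St3gal6 (-1.48), Gcnt1 (-1.32), a branching enzyme of O-glycans, and the sulphotransferase gene Tpst2 (-1.12) fell, as did a peak near Cd24a (-0.82). St3gal6 and Gcnt1 had calls in both directions, with 1 higher peak each (0.78 and 1.10, limma adjusted p = 0.0345 and 0.0295).

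Genes that transmit, desensitise or regulate receptor signals had 10 higher (4.13%) and 3 lower (1.24%) peaks of 242 tested, shares near or below those of all tested peaks. The block gave 32 higher (13.2%) and 13 lower (5.37%), against 10.2% and 8.14% of all tested peaks. The peaks named here are single values and not a result about these genes as a list. A peak in Grk2, a kinase that desensitises chemokine receptors, had 442, 419 and 505 in quiescent and 172, 102 and 155 in proliferating samples (1.70 ± 0.22, limma adjusted p = 0.0082). Peaks also rose in Adam10 (1.67) and Adam17 (1.61), proteases that shed surface proteins, though the Adam17 peak did not pass on recovered reads with total scaling (1.21, limma-voom adjusted p = 0.0668). A peak 82655 bp from Rgs1, which dampens chemokine receptor signals, had 100.2, 84.1 and 92.4 in quiescent and 312, 355 and 262 in proliferating samples (-1.73 ± 0.19, limma adjusted p = 0.00637). Rgs1 had calls in both directions, since a peak 667 bp from the gene was higher in quiescent cells (0.85 ± 0.21, limma adjusted p = 0.0481). That nearer peak did not pass on recovered reads with total scaling (limma-voom adjusted p = 0.0887). Peaks in Arrb1 (-0.82), a beta-arrestin gene, and Dpp4 (-0.87), a peptidase that cleaves CXCL12, were lower. Neither the Arrb1 nor the Dpp4 peak passed on recovered reads with median-of-ratios scaling (-0.58 and -0.68, limma-voom adjusted p = 0.075 and 0.0598). Klf2, a transcription factor that drives S1pr1 expression, had 1 higher peak of 12 and a median log2 fold change of -0.12. With the block, 2 Klf2 peaks were higher and 1 lower. A link between the Klf2 and S1pr1 peaks was not tested.

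**Figure D5:**
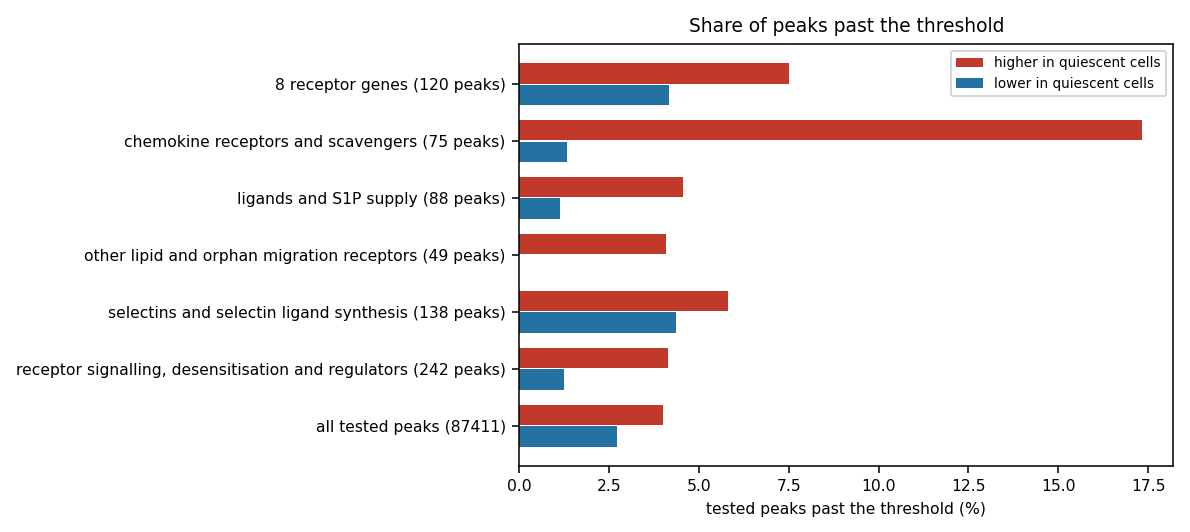
Percent of tested peaks higher (red, upper bar) or lower (blue, lower bar) in quiescent cells at an adjusted p below 0.05, for the 8 receptor genes, the 5 lists of other trafficking genes and all tested peaks, with the number of tested peaks in brackets. The longest bar is the 17.3% of higher peaks among other chemokine receptors and scavengers, against 4.01% of all tested peaks.

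The strongest peaks were also set beside the strongest peaks of the 80 listed genes that have a peak, by Pearson r of the log2 signal over the 6 samples, as a description with no test. Nearest to S1pr1 were Sphk1 (r = 0.97) and Arrb2 (0.90), to Cxcr4 Ccrl2 (0.82) and Sgpp1 (0.81), to Cxcr5 Spn and Lpar5 (0.97 each), and to Ccr7 Selp and Cd69 (0.89 each). Nearest to Ccr9 were Ccr1 (0.89) and Adam17 (0.88), to S1pr4 Ackr4 (0.94), to Selplg Xcr1 (0.85) and Cnr2 (0.80), and to Cd44 Ackr4 (0.98) and St3gal4 (0.91). All these points share the same 6 libraries and their depth.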

How the data were processed

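ATAC-seq of bone marrow B-cells (3 quiescent and 3 proliferating samples) was deposited by the authors as a table of signal in 97124 peaks, a common list for the 6 samples. Per the labels' protocols, a commercial kit and 2 sequencing runs per sample were used. Bowtie2, SAMtools, MACS2 and the build mm10 stand in the submitters' processing notes; versions, the transposase offset, read counting and normalization were not given in the sources used here, so their effect on the values is unknown. The deposited signal is scaled, so that the value of 1 read changes with peak strength and totals are 20904407 to 21518630 per sample.

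As the unit is not counts, limma 3.58.1 (R 4.3.3) with an intensity trend was used on log2(value + 1). It covered the 87411 peaks above the lowest 10% by mean signal, with Benjamini-Hochberg adjustment and a threshold of 0.05. The added 1 pulls the fold change of weak peaks toward 0. That does not make their fold changes cautious, since the weak called peaks of Ccr7 and S1pr1 had smaller ones on recovered reads with either scaling. Reads were recovered in 5 rounds by following the value of 1 read along peak strength (Python 3.11.15, numpy 2.4.6, pandas 2.3.3), and per sample 98.7% to 99.98% of values between 1 and 1000 reads lay within 0.1 of an integer; limma-voom on these reads is an alternative. Fits and recovery were tested on simulated data. Figures used matplotlib 3.10.9.

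Samples with the same number deviated together from their group means (correlations over tested peaks of 0.430, 0.285 and 0.210 for numbers 1, 2 and 3). Quiescent sample 2 also correlated with proliferating sample 3 (0.220), and quiescent sample 3 with proliferating sample 2 (0.146). Only number 1 stood apart, and these values do not show that numbers 2 and 3 pair samples. The fit with the number as a block is therefore an alternative, given beside each count it moves by over 1.5 times and each named call it changes. Named peaks are each receptor gene's strongest peak, those nearest its start (either end where no strand is known), all peaks past the threshold, or else the smallest p, and at most 8 peaks per direction from the trafficking lists, 1 per gene. The receptor genes, lists and tests were chosen with earlier results of these data known. Peaks over non-coding genes only were kept. Some results are not reported here.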

Additional observations from a re-analysis of the deposited data

How the results depend on the processing

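The 14 called receptor peaks kept their sign with the deposited values rescaled by the median of ratios and on recovered reads with either scaling. The other alternatives could not change the sign, because they used the same deposited values, whose groups did not overlap at these peaks. All 14 passed with pseudocounts of 0.5 and 5, with no filter or a 25% filter on low values, with the block and with the deposited values rescaled by the median of ratios. The block changed no other call among the named receptor peaks than the 3 gained ones given above, at Ccr9, S1pr1 and Selplg.

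With the replicate block as a term, 15999 peaks of the whole table passed, against 5876 without it, 22 and 10 receptor peaks were higher and lower, and 92 and 42 trafficking peaks. Without limma's intensity trend the whole table held 3247 calls, the receptors 3 higher and 0 lower (11 lower at an unadjusted p below 0.05) and the trafficking lists 16 and 4. On recovered reads with total scaling, which moved the median of all tested peaks to -0.26, limma-voom called 12969 peaks in all, 8 receptor peaks lower and 48 trafficking peaks lower; with median-of-ratios scaling it called 12197 in all, 20 receptor peaks higher, and 90 and 17 trafficking peaks. With gene bodies only, 0 receptor peaks were higher (3 at an unadjusted p below 0.05) and 2 lower, and 21 and 6 trafficking peaks. Leaving peaks over non-coding genes out, an alternative chosen after seeing the data, left 118 receptor peaks, with 7 higher and 4 lower.

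Leaving out each sample in turn gave 0 to 8241 calls in all, 0 to 11 receptor peaks higher and 0 to 6 lower, and 0 to 48 and 0 to 20 trafficking peaks. The count of 0 in all was without quiescent sample 3, where 16512 peaks had an unadjusted p below 0.05 in limma.

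Uncalled peaks changed sign in places. With median-of-ratios scaling of recovered reads the log2 fold change was 0.17 at the Cxcr4 gene start, 0.12 and 0.18 at the ends of Ccr7, 0.29 at the strongest S1pr1 peak, 0.063 at the S1pr1 end peak, 0.20 at the strongest S1pr4 peak and 0.35 at the strongest Selplg peak, and with total scaling 0.025 at that S1pr1 peak and 0.072 at that Selplg peak; the cause was not tested. Over samples left out in turn, the range was -0.062 to 0.085 at the strongest Cxcr4 peak, -0.22 to 0.15 at the Ccr7 end peak, -0.16 to 0.11 at the strongest Ccr7 peak, -0.17 to 0.11 at the S1pr4 gene start and -0.18 to 0.063 at the strongest Selplg peak. Depth limits the weak peaks most, since the shallowest sample held 27 reads at the median peak.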
